A study of Mus musculus with 23 samples.

Results

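Expression of 9 genes of the interferon response was examined in single mouse bone marrow-derived mesenchymal stem cells (mMSCs). The genes were chosen by name and comprised both chains of the interferon gamma receptor (Ifngr1, Ifngr2), the transcription factor Irf1, and the interferon-stimulated genes Isg15, Ifit1, Ifit3, Ifitm2, Ifitm3 and Bst2. They are 9 of the 23284 genes in the table, and all 9 were among the 12388 genes that reached 1 FPKM in 2 libraries or more, against which they are read. FPKM divides the fragments of a gene by transcript length and by the mapped fragments of the library. Levels of different genes are set side by side on this scale, and how far it makes them comparable was not tested.

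The series holds 16 single mMSCs (mMSC1 to mMSC16), 5 single HL-1 cardiomyocytes (HL1cm1 to HL1cm5) and a bulk population control of each (mMSC-PC and HL1cm-PC), 23 libraries in all. The mMSCs were purchased cells from male mice of 3 months and were used at passages 6 to 11. HL-1 is an established line of mouse atrial cardiomyocytes, here at passages 70 to 85, and the labels give C57BL/6J for both cell types. No interferon or other immune stimulus is named for any culture. The mMSCs grew in alpha-MEM and the HL1cm in Claycomb medium with norepinephrine. Per the study's methods, the captured HL1cm carried a green dye, CellTracker Green CMFDA, and none is named for the mMSCs. Cell type, medium, passage and dye therefore cannot be told apart. No separate cultures are named, so each cell type counts as 1 sample, the cells are not replicates of a condition, and the comparisons carry no test.

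Interferons are secreted proteins that warn cells of infection. Type I interferons bind the Ifnar1 and Ifnar2 chains, and interferon gamma binds Ifngr1 and Ifngr2. Both receptors act through Janus kinases. Signals of the type I receptor reach the interferon-stimulated response element (ISRE) of target promoters through a complex that holds Stat2 and Irf9, and signals of interferon gamma reach the gamma-activated site (GAS). The genes switched on include proteins that restrict viruses, and in MSCs interferon gamma is known for raising immunosuppressive activity.

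The promoters of the 9 genes were searched, because the genes differ in which of these elements they carry. In RefSeq windows from 250 bases before to 50 bases after the start (GRCm38.p6), GAAA repeated after any 2 bases was taken as the ISRE core and TTCNNNGAA as the GAS, on both strands. All 9 genes had a window. The ISRE core was found in 6 of the 9 genes, and in 3.99% of all 27025 genes with a window. It occurred in Isg15 (3 matches), Ifit1, Ifit3, Ifitm3 and Bst2 (2 each) and Ifitm2 (1), and not in Ifngr1, Ifngr2 or Irf1. The GAS was found in Irf1, Bst2 and Ifitm3, and in 9.55% of all genes with a window. Among the other targets listed below that had a window, the ISRE core was not confined to those of type I interferon. It was found in 11 of 33 type I targets and in 10 of 13 interferon gamma targets. For the GAS these counts were 7 of 33 and 6 of 13. In the sequences below, read along the gene, capitals mark every match. Each window of 120 bases covers the bases 156 to 37 before the start, and the Ifitm3 stretch of 27 bases lies 3 to 29 bases after the start, in the 5' UTR.
Isg15, chr4:156200855-156200974, minus strand: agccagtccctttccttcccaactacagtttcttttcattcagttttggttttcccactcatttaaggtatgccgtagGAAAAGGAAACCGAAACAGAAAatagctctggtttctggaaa
Ifit1, chr19:34640733-34640852, plus strand: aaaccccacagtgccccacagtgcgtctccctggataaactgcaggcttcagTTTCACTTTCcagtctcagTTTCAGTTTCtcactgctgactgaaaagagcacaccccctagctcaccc
Ifit3, chr19:34583373-34583492, plus strand: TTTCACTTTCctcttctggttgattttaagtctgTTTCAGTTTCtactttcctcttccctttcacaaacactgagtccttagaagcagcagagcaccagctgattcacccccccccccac
Ifitm2, chr7:140955998-140956117, minus strand: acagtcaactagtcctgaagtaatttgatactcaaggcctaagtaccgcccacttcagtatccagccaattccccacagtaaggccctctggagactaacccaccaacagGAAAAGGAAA
Bst2, chr8:71537509-71537628, minus strand: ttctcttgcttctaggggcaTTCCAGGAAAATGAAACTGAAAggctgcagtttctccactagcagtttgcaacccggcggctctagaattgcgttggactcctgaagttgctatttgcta
Irf1, chr11:53769858-53769977, plus strand: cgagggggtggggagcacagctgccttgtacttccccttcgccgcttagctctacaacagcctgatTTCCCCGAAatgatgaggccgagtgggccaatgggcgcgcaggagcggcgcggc
Ifitm3, chr7:141010716-141010742, minus strand: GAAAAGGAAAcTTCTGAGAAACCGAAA
In Isg15 the 3 ISRE matches overlap in a single run. In Bst2 and Ifitm3 the GAS match overlaps an ISRE match. A match is a description of letters and does not show that a factor was bound.

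The libraries differed in content. Between 5198 and 7641 genes were above 0 in the mMSCs and between 6788 and 7226 in the HL1cm. The population controls had 10279 (mMSC-PC) and 10157 (HL1cm-PC). mMSC9 and mMSC15 had the fewest genes above 0. The FPKM values of a library summed to between 630240 and 2529610 in the mMSCs, and 6 libraries (mMSC1, mMSC8, mMSC16, HL1cm1, HL1cm3, HL1cm5) summed to over 1500000. The table holds no counts, so it does not give the number of fragments behind a value. An exact 0 can be a failed estimate, since Canx, a chaperone with a median of 1082 FPKM in mMSCs, was listed at 0 in mMSC12. The labels held against marker genes: 9 of 9 cardiomyocyte markers were lower in mMSCs by 2-fold or more, and 7 of the 8 mesenchymal markers were higher, while Thy1 was listed at 0 in every library.

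A gene was counted as higher or lower where the mean log2 FPKM of the single mMSCs differed from that of the single HL1cm by 1 or more, which is 2-fold, with values under 1 FPKM set to 1. By this rule 8 of the 9 genes were higher in mMSCs and Ifngr2 was lower. Over all genes compared, 20.5% were higher and 20.8% were lower. In 5 of the 9 (Isg15, Ifit1, Ifit3, Ifitm3 and Bst2) every mMSC lay above every HL1cm, which held for 2.16% of all genes. In none of the 9 did every mMSC lie below every HL1cm (1.8% of all genes). The median difference of the 9 genes was 6.19 on the log2 scale, and that of all genes was 0.0723. Where HL1cm values are 0, the size of the difference depends on the floor of 1 FPKM.

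**Figure D1:**
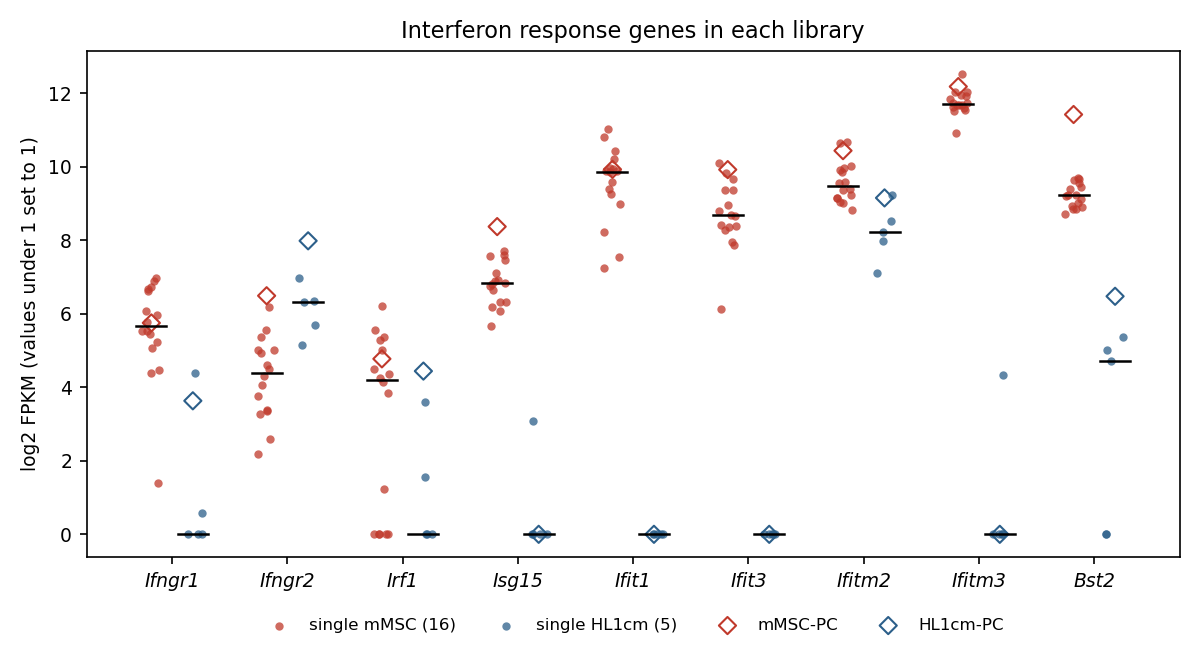
Levels of the 9 genes in each library, as log2 FPKM with values under 1 set to 1. Red points are the 16 single mMSCs, blue points the 5 single HL1cm, black bars the medians and open diamonds the population controls. The 5 genes Isg15, Ifit1, Ifit3, Ifitm3 and Bst2 have no overlap between red and blue points, and Ifngr2 is the gene with the higher median in HL1cm.

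The receptor chains differed between the cell types in opposite directions. Ifngr1 (chr10:19591949-19610229), the ligand-binding chain, ranged over mMSCs from 2.61 FPKM in mMSC6 to 126 in mMSC3, with a median of 50.6. In HL1cm1 to HL1cm5 it was 0, 0, 20.96, 1.49 and 0 FPKM. 14 of 16 mMSCs lay above the highest HL1cm, and the groups overlapped through mMSC6 and mMSC10. The difference in mean log2 FPKM was 4.56, and the SD between mMSCs was 1.37. The population controls read 53.9 FPKM in mMSC-PC and 12.4 in HL1cm-PC, a ratio of 4.35.

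Ifngr2 (chr16:91547072-91565623), the chain that carries the signal with Ifngr1, ranged from 4.54 FPKM in mMSC4 through a median of 21.2 to 73.0 in mMSC2. In HL1cm1 to HL1cm5 it was 125, 80.8, 35.5, 80.0 and 51.4 FPKM. 13 of 16 mMSCs lay below the lowest HL1cm, while mMSC2, mMSC6 and mMSC13 lay above it. The HL1cm median was 3.77 times that of the mMSCs, a difference in mean log2 FPKM of -1.83. In the controls it was 90.05 FPKM in mMSC-PC and 254 in HL1cm-PC, which was 2.82 times as high. Within an mMSC the ratio of Ifngr1 to Ifngr2 ran from 0.0556 in mMSC6 to 14.9 in mMSC4, and Ifngr1 was the higher chain in 14 of 16 cells. In mMSC-PC the order was reversed, with a ratio of 0.599.

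Irf1 (chr11:53770014-53778374), a transcription factor induced by interferon gamma, was listed at 0 in mMSC2, mMSC4, mMSC5, mMSC9 and mMSC13 and above 0 in 11 of 16 mMSCs (68.8%, exact Clopper-Pearson 95% interval 41.3 to 89.0%). This interval, like the others given, covers the counting of cells only. The median was 18.3 FPKM and the highest value 73.9, in mMSC1. In HL1cm1 to HL1cm5 it was 0, 12.03, 2.94, 0 and 0 FPKM, so the groups overlapped. The difference in mean log2 FPKM was 2.08. The controls lay close together, at 27.4 FPKM in mMSC-PC and 21.7 in HL1cm-PC, a ratio of 1.26, which is under 2-fold. Irf1 overlaps Gm17334 on the opposite strand, and without strand information their fragments cannot be told apart.

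Isg15 (chr4:156199424-156200818) encodes a small protein that is attached to other proteins as ubiquitin is. It was above 0 in every mMSC, from 50.4 FPKM in mMSC1 through a median of 114 to 208 in mMSC13. In HL1cm it was 8.53 FPKM in HL1cm2 and listed at 0 in the other 4. The lowest mMSC was 5.92 times the highest HL1cm. The difference in mean log2 FPKM was 6.19. It was 332 FPKM in mMSC-PC, above every single mMSC, and listed at 0 in HL1cm-PC.

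Ifit1 (chr19:34640871-34650009) and Ifit3 (chr19:34583531-34588731) encode proteins with tetratricopeptide repeats, and Ifit1 binds viral RNA. Ifit1 ranged from 153 FPKM in mMSC13 through a median of 938 to 2106 in mMSC6. Ifit3 ranged from 69.5 FPKM in mMSC13 through a median of 412 to 1100 in mMSC10. Each of the 5 HL1cm, and HL1cm-PC too, listed both genes at 0, so no fold is given. For each, 0 of 5 HL1cm had a value above 0, for which the exact interval reaches 52.2%. Among all genes compared, 0.573% were above 0 in all 16 mMSCs and at 0 in all HL1cm libraries. In mMSC-PC the values were 977 FPKM for Ifit1 and 972 for Ifit3. Ifit1 was the higher gene in 13 of 16 mMSCs, with a ratio to Ifit3 from 0.544 in mMSC8 to 7.62 in mMSC15, against 1.01 in mMSC-PC. Ifit3 shares 41.1% of its stretches of 75 bases, the read length, with its close copy Ifit3b, so its values are uncertain. Ifit1 shares 5.19% with Ifit1bl2.

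The Ifitm genes encode membrane proteins that hinder the entry of viruses. Ifitm3 (chr7:141009586-141010770) had the highest level of the 9 genes, from 1949 FPKM in mMSC11 through a median of 3358 to 5928 in mMSC7. Its median was in place 15 among the 23284 genes of the table. In HL1cm it was 20.2 FPKM in HL1cm5 and listed at 0 in the other 4, and the lowest mMSC was 96.3 times the highest HL1cm. It was 4656 FPKM in mMSC-PC and listed at 0 in HL1cm-PC. Ifitm3 took between 41.3% and 69.6% of the summed FPKM of the 9 genes in an mMSC.

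Ifitm2 (chr7:140954837-140955987) was instead present in both cell types. It ranged from 453 FPKM in mMSC11 through a median of 715 to 1648 in mMSC15. In HL1cm1 to HL1cm5 it was 299, 367, 253, 600 and 139 FPKM. 11 of 16 mMSCs lay above the highest HL1cm, and the mMSC median was 2.39 times that of the HL1cm. The controls read 1390 and 570 FPKM, a ratio of 2.44. The difference in mean log2 FPKM was 1.37, and it was 0.75, under 2-fold, without the 6 libraries of high FPKM sum. Without them the difference of Irf1 also fell under 2-fold, to 0.81, and 6 of the 9 genes remained higher. In that setting 23.7% of all genes were higher. Ifitm2 shares 42% of its stretches of 75 bases with other annotated genes, chiefly the overlapping Gm45717, so its values are uncertain.

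Bst2 (chr8:71534255-71537456), also called tetherin, holds budding viruses at the cell surface. In the values as deposited it varied little among mMSCs, from 422 FPKM in mMSC7 through a median of 597 to 836 in mMSC11. In HL1cm1 to HL1cm5 it was 41.7, 32.3, 0, 0 and 26.5 FPKM. The lowest mMSC was 10.1 times the highest HL1cm, and the difference in mean log2 FPKM was 6.20. The controls read 2749 FPKM in mMSC-PC and 89.1 in HL1cm-PC, a ratio of 30.8.

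**Figure D2:**
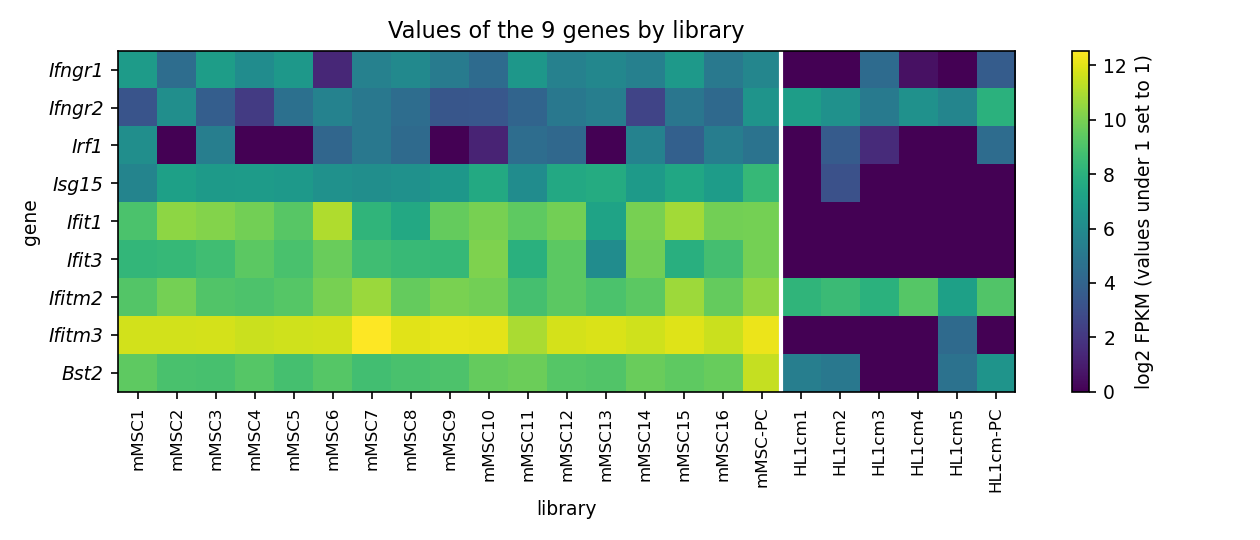
Log2 FPKM of the 9 genes (rows) in each of the 23 libraries (columns), with values under 1 set to 1 and a white line between the mMSC and HL1cm libraries. Ifitm3 is the brightest row in the mMSC libraries, Irf1 has 5 dark mMSCs, and Ifitm2 and Ifngr2 are above 0 in all HL1cm libraries.

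The population controls showed most of the same directions. Between mMSC-PC and HL1cm-PC, 7 of the 9 genes were higher by 2-fold or more, Irf1 was within 2-fold and Ifngr2 was lower, where 18.1% of all genes were higher and 34.5% were lower. Each control was a single library. In bulk samples fewer cells with a transcript and less RNA per cell cannot be told apart. mMSC-PC lay above every single mMSC for Ifngr2, Isg15 and Bst2 (9.66% of all genes), at 4.25, 2.92 and 4.60 times the median cell, and below every single mMSC for none (1.91% of all genes). For Ifit1 and Ifngr1 it was 1.04 and 1.07 times the median cell. HL1cm-PC lay above every single HL1cm for Ifngr2, Irf1 and Bst2, which held for 30.3% of all genes.

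By median level in mMSCs the order was Ifitm3, Ifit1, Ifitm2, Bst2, Ifit3, Isg15, Ifngr1, Ifngr2 and Irf1. Ifitm3 was above Ifit1 in 16 of 16 cells, and Ifit3 was above Isg15 in 15 of 16. These 2 steps were larger than the SD between cells. Neighbours at the other steps did not differ beyond their spread: Ifit1 was above Ifitm2 in 11 of 16 cells, Ifitm2 above Bst2 in 10, Bst2 above Ifit3 in 10, Isg15 above Ifngr1 in 13, Ifngr1 above Ifngr2 in 14 and Ifngr2 above Irf1 in 10.

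The genes differed in how evenly single mMSCs carried them. 8 of the 9 were above 0 in all 16 mMSCs (exact 95% interval 79.4 to 100% for each), which held for 18.6% of all genes. Among the 2143 genes that reached 1 FPKM in all 16 mMSCs, the median SD of log2 FPKM was 0.861. Bst2 had an SD of 0.32 and Ifitm3 of 0.34, and 1.17% and 1.59% of the 2143 genes had a lower SD. These SDs are of the values as deposited, in which the FPKM sums of the mMSCs differed, so they depend on the scaling. The 2143 genes are of all levels, and genes of high level tended to have a lower SD. Ifitm2 (0.56) and Isg15 (0.60) were also below the median. Ifit3 (0.95), Ifit1 (1.07), Ifngr2 (1.11) and Ifngr1 (1.37) were above it. The highest cell was 1.98 times the lowest for Bst2, 13.8 times for Ifit1, 15.8 times for Ifit3 and 48.2 times for Ifngr1. The value of Ifngr1 rests on mMSC6, without which its SD was 0.84.

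**Figure D3:**
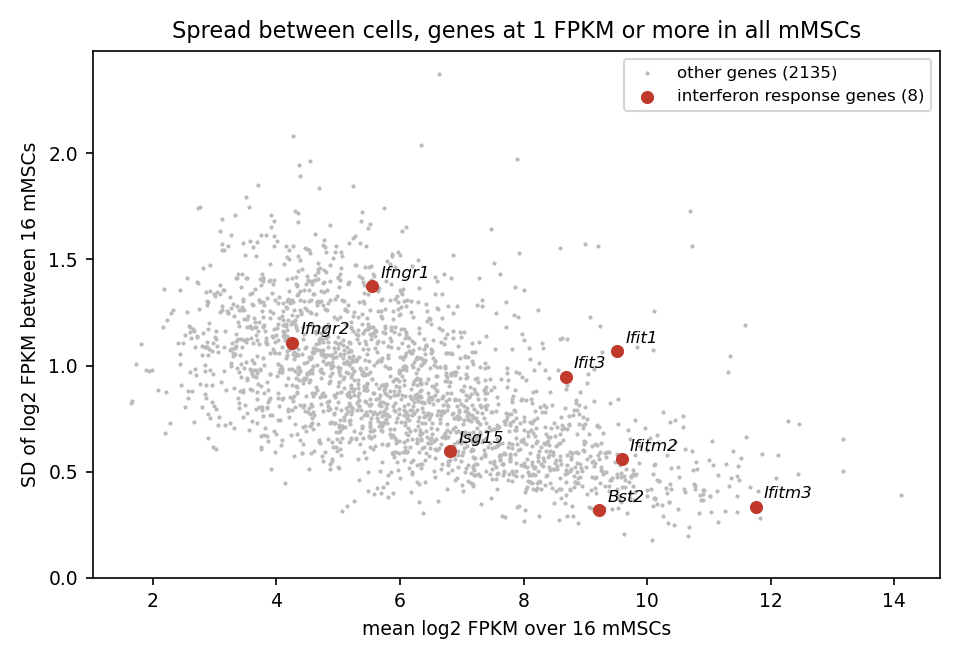
SD of log2 FPKM between the 16 mMSCs (vertical) against the mean log2 FPKM (horizontal) for the 2143 genes that reached 1 FPKM in all 16. Red points are 8 of the 9 interferon response genes and grey points the other genes. Ifit1 and Ifit3 lie in the upper part of the cloud at their level, and Bst2 and Ifitm3 in the lower part.

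The mMSCs at the extremes differed from gene to gene. mMSC13 had the lowest Ifit1 and Ifit3 and the highest Isg15. mMSC6 had the highest Ifit1 and the lowest Ifngr1. mMSC11 had the lowest Ifitm2 and Ifitm3 and the highest Bst2, whereas mMSC7 had the highest Ifitm3 and the lowest Bst2. mMSC15 had the highest Ifitm2 and the second highest Ifit1, with the second lowest Ifit3.

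Over the 16 mMSCs, for which no separate cultures are named and which differ in library content, the median Pearson's r of the 36 pairs was 0.032, and over all pairs of 6777 genes it was 0.0041. An r of 0.5 or more was found in 2 pairs (5.56%, against 2.96% of all pairs). Ifitm2 and Ifitm3 had r = 0.71 and Spearman's rho = 0.54, and r was 0.59 without mMSC7 and mMSC15. Ifitm3 was the higher of the pair in 16 of 16 cells, by 2.36 to 7.10 times. Ifit1 and Ifit3 had r = 0.55 and rho = 0.36, which rests on mMSC13, since r was 0.25 without it. Ifitm3 and Bst2 had r = -0.54, which rests on mMSC7 and mMSC11, since r was -0.12 without them. For this pair r was 0.64 once every library was rescaled to the same FPKM sum, so the sign depends on the scaling. With that rescaling the median r of the 36 pairs was 0.42, and 13 pairs reached 0.5.

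**Figure D4:**
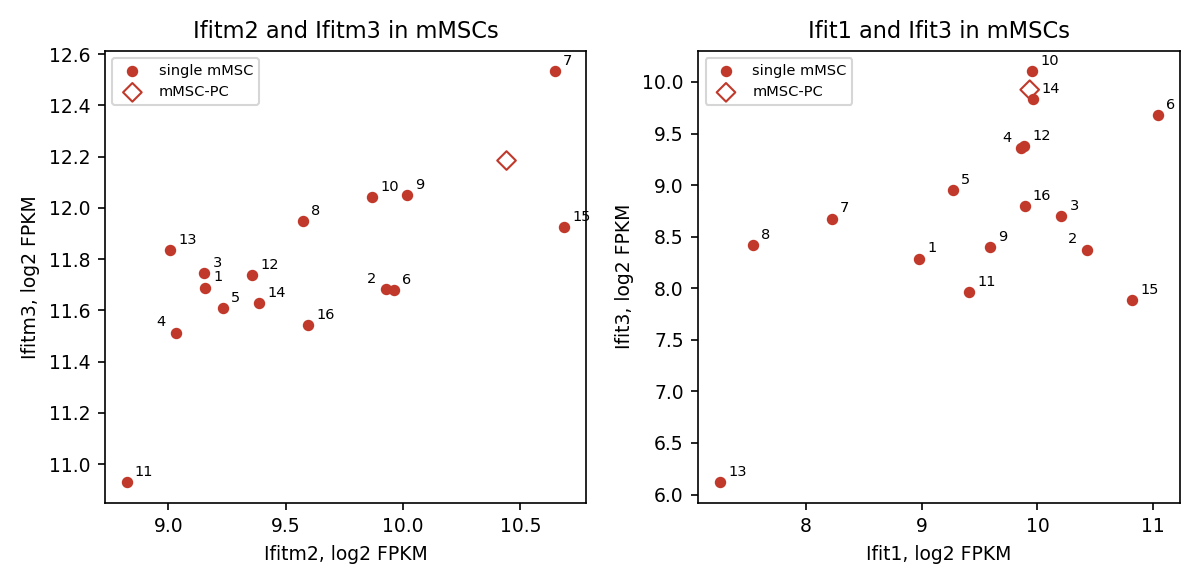
Log2 FPKM of Ifitm3 against Ifitm2 (left) and of Ifit3 against Ifit1 (right) in the 16 single mMSCs, numbered by cell, with mMSC-PC as an open diamond. Ifitm3 and Ifitm2 have r = 0.71, and the r of 0.55 for Ifit1 and Ifit3 rests on cell 13 at the lower left.

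Transcripts of some upstream factors were set beside the 6 interferon-stimulated genes in the same cells. All r here are of values as deposited. Over all pairs of the 6777 genes, 2.96% had r of 0.5 or more and 2.53% had r of -0.5 or less. Stat2 had r = 0.54 with Bst2 (rho = 0.43) and 0.27 with Isg15 (rho = 0.28). Ifnar2, a chain of the type I receptor, had r = -0.59 with Ifitm2 (rho = -0.52) and -0.50 with Ifitm3 (rho = -0.29). Ifnar2 was above 0 in 12 of the 16 mMSCs and Stat2 in 14, and an exact 0 can be a failed estimate. Irf9 and Irf7, and the receptor chains Ifnar1, Ifngr1 and Ifngr2, stayed between -0.5 and 0.5 with all 6 genes, as did Irf1.

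The genes with the most similar pattern over the 16 mMSCs were found among 6777 genes by Pearson's r, and with so many compared a large r is reached by some gene for every pattern. Isg15 was most like Mx1 (r = 0.80), another interferon-stimulated gene. Ifit1 was most like Scd1 (0.83), a fatty acid desaturase, and Gbp2 (0.83), a guanylate-binding protein induced by interferon. Irf1 was most like Dlgap4 (0.85), Ifit3 like Ctsa (0.80), Ifitm2 like Spcs1 (0.80) and Ifitm3 like Rplp2 (0.74). Bst2 was most like Gpatch1 (0.79), Ifngr2 like Ell2 (0.80) and Ifngr1 like Ptpmt1 (0.78).

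The interferons themselves were listed at 0. 19 interferon genes of the list were in the table, among them Ifna1, Ifna2, Ifna4 and Ifna5, and all 19 were listed at 0 in all 23 libraries.

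Other targets of type I interferon were also higher in mMSCs. Of 45 such genes outside the 9, 42 were higher by 2-fold or more, none was lower, and 3 (Oas1c, Oas3 and Trim25) were within 2-fold, against 20.5% and 20.8% of all genes. Their median difference was 3.96 on the log2 scale. Every mMSC lay above every HL1cm in 19 of the 45, which held for 2.16% of all genes. 13 of the 45 were listed at 0 in all HL1cm libraries, a share that was not computed over all genes. With exact 0 left out of the means, 27 were higher and 1 was lower. That setting drops genes without an HL1cm value, so fewer than 45 were compared. Of the 9726 genes left in it, 20.1% were higher and 21.5% were lower. Usp18, which removes Isg15 from proteins and dampens the type I receptor, ranged from 329 to 1231 FPKM in mMSCs and from 0 to 17.2 in HL1cm. Ly6e, a membrane protein, had a median of 722 FPKM in mMSCs and was listed at 0 in all HL1cm libraries. Lgals9, a galectin, had medians of 642 and 37.7 FPKM, and Ifi35 had medians of 159 and 52.6. The lists overlap, and Usp18, Stat2, Irf3, Irf7, Irf9, Ifih1 and Ddx58 are among the genes that stand in 2 or more of them.

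Of 20 targets of interferon gamma compared, 12 were higher, 7 were within 2-fold and Vcam1 was lower, with a median difference of 1.23, against 20.5% higher and 20.8% lower over all genes. With a floor of 10 FPKM, 7 were higher and 0 were lower, where 7.12% and 7.35% of all genes were. Without the 6 libraries of high FPKM sum, 3 were lower, where 25% of all genes were. The immunity-related GTPases Irgm1 and Igtp had mMSC medians of 401 and 115 FPKM, and 15.3 and 5.06 in HL1cm. Gbp2 had a median of 234 FPKM in mMSCs and was listed at 0 in all HL1cm libraries. The chemokine Cxcl10 ran from 0 to 1589 FPKM in mMSCs and from 0 to 162 in HL1cm.

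Among the 10 other receptor and signalling genes compared, 5 were higher, 4 were within 2-fold and Il10rb was lower. With a floor of 10 FPKM 3 were higher and 0 were lower. For this and the next lists, 20.5% of all genes were higher and 20.8% were lower, and 7.12% and 7.35% with that floor. Jak1, a kinase of both receptors, had medians of 40.6 FPKM in mMSCs and 14.03 in HL1cm. Of 6 interferon regulatory factors besides Irf1, 3 were higher and 2 (Irf3 and Irf8) were lower, of which 0 were lower with a floor of 10 FPKM. Irf7, which amplifies type I interferon production, ranged from 43.7 to 337 FPKM in mMSCs and from 0 to 14.98 in HL1cm, and Irf9 had medians of 37.1 and 1.41. Irf3, which starts type I interferon production, had medians of 5.19 and 17.0 FPKM. Of 5 negative regulators compared, 2 (Usp18 and the phosphatase Ptpn2) were higher, Pias1 was lower and 2 were within 2-fold, and with a floor of 10 FPKM 0 were lower.

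Of 11 genes of antigen presentation, which interferons induce, 10 were higher and none was lower, against 20.5% and 20.8% of all genes. B2m, the light chain of class I molecules, had medians of 4142 FPKM in mMSCs and 340 in HL1cm, and the ratio of Ifitm3 to B2m in an mMSC ran from 0.490 to 1.27. The proteasome activators Psme2 and Psme1 had mMSC medians of 789 and 431 FPKM, and 221 and 167 in HL1cm. The immunoproteasome subunit Psmb8 had medians of 408 and 28.1. Of 11 sensing genes, 7 were higher and 2 (Irf3 and Mavs) were lower, against the same shares of all genes. With a floor of 10 FPKM 2 were higher and 0 were lower, where 7.12% and 7.35% of all genes were. Ifih1, a sensor of viral RNA, had medians of 43.8 and 0 FPKM, and Ddx58 of 17.7 and 4.88. Tbk1, a kinase of this pathway, had medians of 19.7 and 9.28 FPKM and was within 2-fold.

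Among the close relatives, I830012O16Rik, a name of Ifit3b, had a median of 121 FPKM in mMSCs and was listed at 0 in all HL1cm libraries, and Ifit2 had medians of 30.1 and 2.94. Ifitm1 was above 0 in 4 mMSCs, up to 15.7 FPKM, and Ifitm5 in 1.

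**Figure D5:**
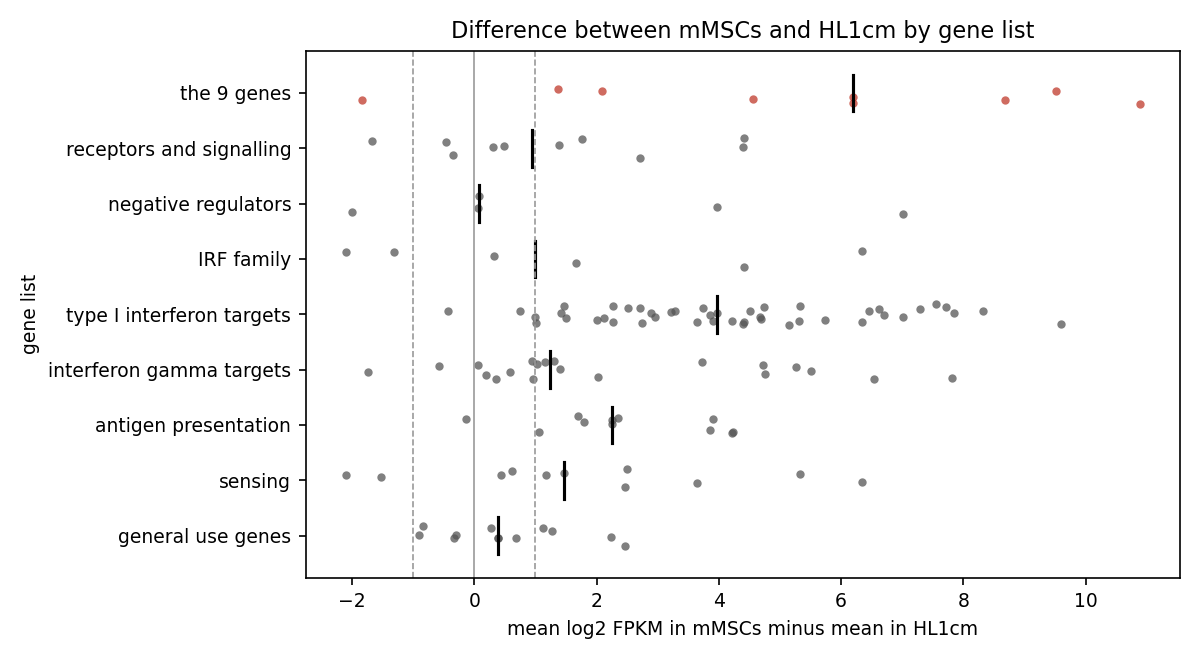
Difference in mean log2 FPKM between single mMSCs and single HL1cm for each gene compared in the lists, with a black bar at each median and dashed lines at 2-fold. Red points are the 9 genes and grey points the genes of each list with the 9 left out. The medians are 6.19 for the 9 genes, 3.96 for the type I targets and 1.23 for the interferon gamma targets.

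Markers of macrophages, which respond strongly to interferon, were examined in the same libraries. Of 11 macrophage markers in the table, 6 (Ptprc, Emr1, Lyz2, Tyrobp, C1qa and Laptm5) were listed at 0 in all 23 libraries. The summed level of the 11 was 3.10 to 369 FPKM in mMSCs and 0 to 1.10 in HL1cm. Cd14, a receptor for bacterial lipopolysaccharide, was above 0 in 15 of 16 mMSCs with a median of 62.5 FPKM and was listed at 0 in every HL1cm library. Csf1r was above 0 in 8 of 16 mMSCs, up to 32.6 FPKM, at 7.04 in mMSC-PC and listed at 0 in every HL1cm library. Cd68 was above 0 in 1 mMSC, at 48.1 FPKM, and read 12.6 in mMSC-PC and 5.77 in HL1cm-PC. Of 12 genes of general use, 4 were higher in mMSCs and 8 were within 2-fold, where 20.5% of all genes were higher and 20.8% were lower. The part of Cd14-bearing cells or of library content in the differences was not tested.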

How the data were processed

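RNA-seq of 21 single cells and 2 population controls of mouse cells was used. Per the study's methods, mMSCs and HL1cm were captured in the same microfluidic device, cDNA was made from each cell on the chip with the SMARTer Ultra Low RNA kit and read in pairs of 75 bases. The authors aligned reads to mm10 with TopHat2 2.0.12 and deposited FPKM values from Cufflinks 2.2.1, with default options. The cDNA of a cell is amplified before sequencing, so values of single cells carry amplification noise, and the deposited table gives no counts. The read totals of the study were not used here.

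Values were used as deposited. Log2 values were taken after setting values under 1 FPKM to 1. Genes that reached 1 FPKM in 2 or more of the 23 libraries were compared. Differences are of mean log2 FPKM, single mMSCs minus single HL1cm, and 2-fold is a difference of 1. Each cell type counted as 1 sample, so no test was run. Intervals are exact Clopper-Pearson at 95% and cover counting error only. Correlations used genes that reached 1 FPKM in 8 or more mMSCs. The scripts were tested on simulated data.

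The genes named were the 9 members, up to 4 genes of highest mean log2 FPKM from each of 14 lists, and up to 3 genes of the largest r with each member. Oas1c, Oas3, Trim25, Vcam1, Il10rb, Irf8, Mavs, Canx, Thy1, Stat2, Ifnar2 and the macrophage markers at 0 were named after their values were seen. A gene that the rule names is not reported here. The members and lists were chosen with earlier results of these data known. Gene positions are from GENCODE M21 and promoters from RefSeq, both mm10. The scripts ran in Python 3.11.15 with scipy 1.17.1, numpy 2.4.6 and pandas 2.3.3, and figures were drawn with matplotlib 3.10.9. Alternatives were other floors, filters and scalings, medians, population controls and leaving out libraries.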

Additional observations from a re-analysis of the deposited data

Results flagged for a closer look

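In 3 of the 7 genes with values above 0 in HL1cm, the highest of the 5 HL1cm cells stood far from the other 4 by Dixon's criterion. Ifngr1 was 20.96 FPKM in HL1cm3, Isg15 was 8.53 FPKM in HL1cm2 and Ifitm3 was 20.2 FPKM in HL1cm5. Chance gives such a value in about 1 of 20 groups without values of 0, and zeros in the other cells make it more frequent. For Isg15 and Ifitm3 the other 4 cells were all at 0, so any value above 1 FPKM would have been flagged. Each gene stood out in a different cell.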

How the results depend on the processing

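No paired analysis was possible because no test was fitted and a cell number only names a cell. The counts of 8 genes higher and 1 lower were the same with a floor of 0.1 FPKM, log2(FPKM + 1), other gene filters, the 3 rescalings, the median over cells and each single cell left out. They were 7 and 1 with a floor of 10 FPKM and in the population controls, and 6 and 1 with exact 0 left out, where Ifit1 and Ifit3 have no HL1cm value. They were also 6 and 1 without the 6 libraries of FPKM sum over 1500000, a setting chosen after seeing the data. Of all genes in that setting, 23.7% were higher and 25% were lower. In the population controls, 8 members had mMSC above HL1cm.

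Rescaling moved the median difference of all genes by 0.105 (same sum), -0.12 (median ratio) and 0.113 (Gapdh), and genes called higher were 49.6% of all calls as deposited, and 58.8%, 42.2% and 58.2%. At the same sum, the median r was 0.42, 13 pairs of members reached r of 0.5, and Ifitm3 and Bst2 had r = 0.64. No r over all pairs of genes was computed at that scaling. In the values as deposited, 1 pair reached a Spearman's rho of 0.5.

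List counts moved as follows. The shares of all genes higher and lower were 7.12% and 7.35% with a floor of 10 FPKM, and 30.8% and 30.4% with 0.1 FPKM. They were 20.1% and 21.5% with exact 0 left out, and 18.1% and 34.5% in the population controls. Without the 6 libraries they were 23.7% and 25%. They were 28.2% and 22.3% with genes that reached 1 FPKM in 8 or more libraries, and 20.4% and 21% with the median over cells. With a floor of 10 FPKM, 3 receptor and signalling genes, 7 interferon gamma targets and 2 sensing genes were higher, and 0 were lower in these lists, the negative regulators and the interferon regulatory factors. With a floor of 0.1 FPKM, 2 receptor genes and 2 interferon gamma targets were lower. With exact 0 left out, 27 type I targets were higher, 1 type I target, 1 antigen presentation gene and 1 sensing gene were lower, and 0 receptor genes and 0 regulatory factors were lower. In the population controls, 1 negative regulator was higher, and 0 receptor genes, 2 interferon gamma targets and 1 sensing gene were lower. Without the 6 libraries, 1 regulatory factor, 1 type I target and 3 interferon gamma targets were lower. With genes that reached 1 FPKM in 8 or more libraries, or the median over cells, 1 regulatory factor was lower. Leaving out 1 HL1cm at a time gave 1 to 2 lower sensing genes and 1 to 2 lower regulatory factors, with 1 without HL1cm2 and without HL1cm3. Of all genes, 21.7% were lower without HL1cm2 and 22.1% without HL1cm3. The cause of these changes was not tested.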
